A study of Mus musculus with 9 samples.

Results

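Transcript levels of 50 genes of the cell cycle and DNA replication were examined in E10.5 mouse hearts in which *Ctcf* was deleted. The genes were listed by name and function, with earlier results of these data known, and comprised 28 genes of G1 and S phase and 22 genes of G2 and mitosis. All 50 were present among the 14011 genes of the expression table. RNA-seq libraries had been made from 3 control, 3 heterozygous and 3 homozygous pools of 6 hearts each, so each genotype has n = 3 pools, whose spread may in part be technical. Homozygotes carried *Ctcf* fl/fl with *Nkx2.5-Cre*/+, and heterozygotes carried *Ctcf* fl/+ with *Nkx2.5-Cre*/+. Controls carried no Cre and are labelled *Ctcf* fl/fl, whereas the study's methods for this experiment give *Ctcf* fl/+. Embryos of all 3 genotypes carried the floxed allele, and the strain was mixed. *Nkx2.5-Cre* recombines floxed alleles in cardiac progenitors and their derivatives, so cells of other lineages in the heart may keep *Ctcf*. Only the controls lack the driver, and its own effect cannot be told apart from that of the deletion where they are used. Libraries are named L1 to L3 within each genotype by their total number of reads, from the lowest to the highest. In homozygotes these are replicates 1 to 3.

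Dividing cells license their replication origins in G1 by loading the MCM helicase, commit to S phase when cyclin D and cyclin E kinases release E2F factors from the RB protein, and enter mitosis when cyclin B switches on CDK1. Many genes for these steps are switched on by E2F factors before S phase or, through CHR and CCAAT elements, before mitosis. Cardiomyocytes of the embryo divide while they contract, and growth of the heart at midgestation depends on this division.

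Promoter sequence is known to set these waves of expression apart. RefSeq promoters on GRCm38.p6 were available for 39 of the 50 genes, and the 250 bases before each start were searched on both strands. The E2F words were TTTGGCGC, TTTCGCGC, TTTCCCGC and TTTGCCGC, the CHR words were TTTGAA and TTCGAA, and the third word was CCAAT. Words were chosen after the expression values had been seen, matches of 2 words may overlap, and a gene with several starts was counted if any of them held a match. An E2F word was found in 7 of 22 G1/S genes (31.8%) and in 1 of 17 G2/M genes (5.88%), against 3.93% of 9579 genes of the expression table and 2.16% of all 27025 genes with a promoter. A CHR word was found in 4 of 22 G1/S genes (18.2%) and in 7 of 17 G2/M genes (41.2%), against 14.4% and 19.6%. CCAAT was found in 15 of 22 G1/S genes (68.2%) and in 14 of 17 G2/M genes (82.4%), against 40.7% and 37.5%. A match describes the letters and is not evidence of binding.

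The following stretches of G1/S promoters, which lie upstream of the start and are written 5′ to 3′ along the gene, show the E2F type, with each match on either strand in capitals (ATTGG is CCAAT on the other strand). In *Mcm6* and *Mcm5* a pair of E2F words overlapped on opposite strands.
*Mcm6*, chr1:128359706-128359825, minus strand: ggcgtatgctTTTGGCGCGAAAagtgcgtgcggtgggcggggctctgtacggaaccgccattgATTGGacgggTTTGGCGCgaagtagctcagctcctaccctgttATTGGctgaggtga
*Mcm5*, chr8:75109346-75109501, plus strand: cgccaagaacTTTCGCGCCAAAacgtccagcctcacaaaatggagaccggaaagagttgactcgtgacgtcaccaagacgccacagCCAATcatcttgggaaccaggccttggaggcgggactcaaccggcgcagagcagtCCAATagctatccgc
*Orc1*, chr4:108579324-108579444, plus strand: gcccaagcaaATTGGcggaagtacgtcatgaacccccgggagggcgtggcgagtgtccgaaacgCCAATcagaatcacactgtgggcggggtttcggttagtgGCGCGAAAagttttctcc

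The following stretches of G2/M promoters show the CHR and CCAAT type, with each match on either strand in capitals. *Cdk1* was the G2/M gene that held an E2F word, and it also held both other kinds.
*Cdk1*, chr10:69352913-69353130, minus strand: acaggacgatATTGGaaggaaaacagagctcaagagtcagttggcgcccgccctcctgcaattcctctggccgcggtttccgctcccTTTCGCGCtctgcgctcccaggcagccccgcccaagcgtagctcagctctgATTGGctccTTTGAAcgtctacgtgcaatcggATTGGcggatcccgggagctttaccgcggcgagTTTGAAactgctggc
*Mki67*, chr7:135716462-135716577, minus strand: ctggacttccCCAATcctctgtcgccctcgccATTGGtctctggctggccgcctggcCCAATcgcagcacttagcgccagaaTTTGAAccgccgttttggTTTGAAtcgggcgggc
*Kif11*, chr19:37376327-37376378, plus strand: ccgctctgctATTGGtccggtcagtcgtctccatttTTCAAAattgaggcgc

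The deleted gene checks the labels. *Ctcf* (ENSMUSG00000005698, chr8:108160468-108206822 on NCBIM37, the build of all gene positions below) had normalized values, which are reads scaled to library size, of 122, 121 and 122 in control L1 to L3, of 97.0, 94.2 and 101 in heterozygote L1 to L3, and of 79.6, 80.0 and 84.7 in homozygote L1 to L3. The 3 genotypes did not overlap. The mean of homozygotes was 67.0% and that of heterozygotes 80.1% of the mean of controls, with limma adjusted p of 2.91e-05 and 0.0467. Reads from undeleted parts of the gene, and from cells without Cre, are included in these values. In RNA from whole hearts, fewer cells of a type and less RNA per cell cannot be told apart. The depth was 4294537 to 11629365 reads, at which a single read adds 0.0901 to 0.231 to a normalized value. Single genes of the set had between 37 and 11893 reads per library. The median coefficient of variation of the 50 genes between libraries of one genotype was 4.36% in controls, 4.98% in heterozygotes and 5.91% in homozygotes, and it was highest for *Orc1* in heterozygotes (22.6%).

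Most changes of the cell cycle genes in homozygotes were small, and more of them were upward than downward. In homozygotes 6 of the 50 genes were called against controls (12%; limma, adjusted p under 0.05, as for every call below), against 15.2% of all genes tested. Of these, *E2f2*, *Mad2l1*, *Tyms* and *Cdk1* were higher and *Ccnd2* and *Cdk6* were lower, so that 4 genes rose where 7.19% of all genes did and 2 fell where 8.03% did. The largest changes were those of *E2f2* (142% of the control mean) and *Cdk6* (70.9%). Only *Ccnd2* and *E2f2* were called with DESeq2, without control L1 and without control L3, where 11.8%, 7.49% and 11.5% of all genes were. At an unadjusted p under 0.05 there were 14 genes, 12 higher and 2 lower. Of all genes tested 29.6% were, 2033 higher and 2112 lower of 14011. The intervals of the other 44 genes were narrow. For 43 of them the 95% interval lay inside a log2 fold change of -0.5 to 0.5, and only that of *Orc1* reached beyond it, to 0.63. Values of homozygotes lay above all controls for 13 genes and below all controls for 3, against 16.6% and 16.5% of all genes and 33.2% in either direction. The estimate was above 0 for 37 of the 50 genes, against 49.9% of all genes, and its median was 0.08 in G1/S genes and 0.10 in G2/M genes (log2), against 0.00 over all genes. Without homozygote L3 the median of G1/S genes was 0.03. The median size of the change, whatever its sign, was 0.12 for the 50 genes and 0.16 for all genes (log2), and the median standard error was 0.07 and 0.11.

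**Figure D1:**
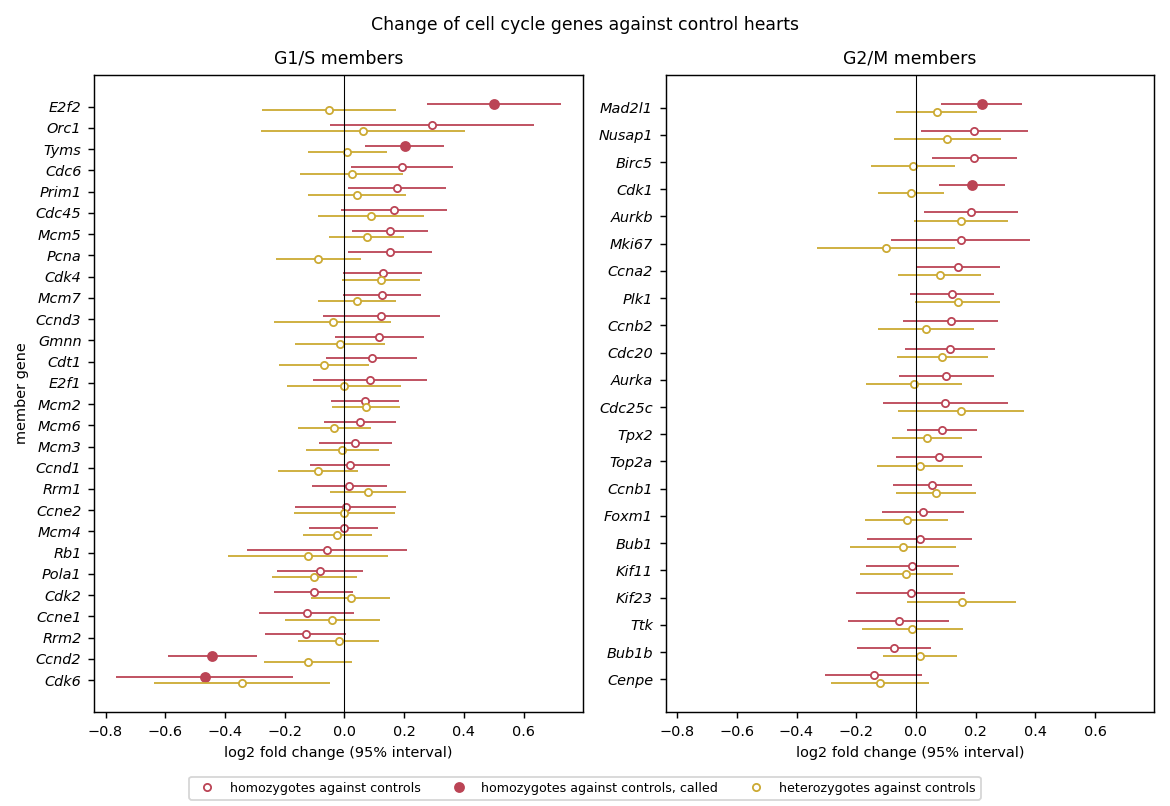
Log2 fold changes of the 28 G1/S genes (left) and 22 G2/M genes (right), on the scale of log2(value + 0.5), against the mean of 3 control libraries. Lines are 95% intervals, red marks homozygotes, yellow marks heterozygotes, and filled points passed the test. The 6 filled points are *E2f2*, *Tyms*, *Ccnd2*, *Cdk6*, *Mad2l1* and *Cdk1*, and no heterozygote point is filled.

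Against heterozygotes, which also carry the driver, homozygotes differed in 4 of the 50 genes (8%), against 13.6% of all genes tested. *E2f2*, *Pcna* and *Cdk1* were higher and *Ccnd2* was lower, where 6.87% of all genes rose and 6.7% fell. Both comparisons use the same homozygote libraries, so the 3 genes called in both are not independent results. Values did not overlap for 7 genes that were higher and 2 that were lower, against 15.3% and 15.5% of all genes and 30.8% in either direction. The 95% interval of 45 of the other 46 genes lay inside -0.5 to 0.5, with *Orc1* again the exception (upper bound 0.57). At an unadjusted p under 0.05 there were 9 genes, 8 higher and 1 lower. Of all genes 27.6% were, 1901 higher and 1973 lower of 14011.

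Heterozygotes differed from controls in 0 of the 50 genes with limma, with edgeR and with DESeq2, against 0.143% of all genes tested with limma (0.0928% higher and 0.05% lower). Only *Cdk6* reached an unadjusted p under 0.05 (adjusted p = 0.614), which 7.37% of all genes did. Values did not overlap for 6 genes that were higher (*Mcm2*, *Rrm1*, *Ccnb1*, *Aurkb*, *Plk1* and *Cdc20*) and 2 that were lower (*Pcna* and *Cdk6*), against 7.41% and 6.93% of all genes and 14.3% in either direction. The estimate was above 0 for 24 of the 50 genes, against 50% of all genes. The 95% intervals of 49 of them lay inside -0.5 to 0.5, and that of *Cdk6* reached down to -0.64.

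**Figure D2:**
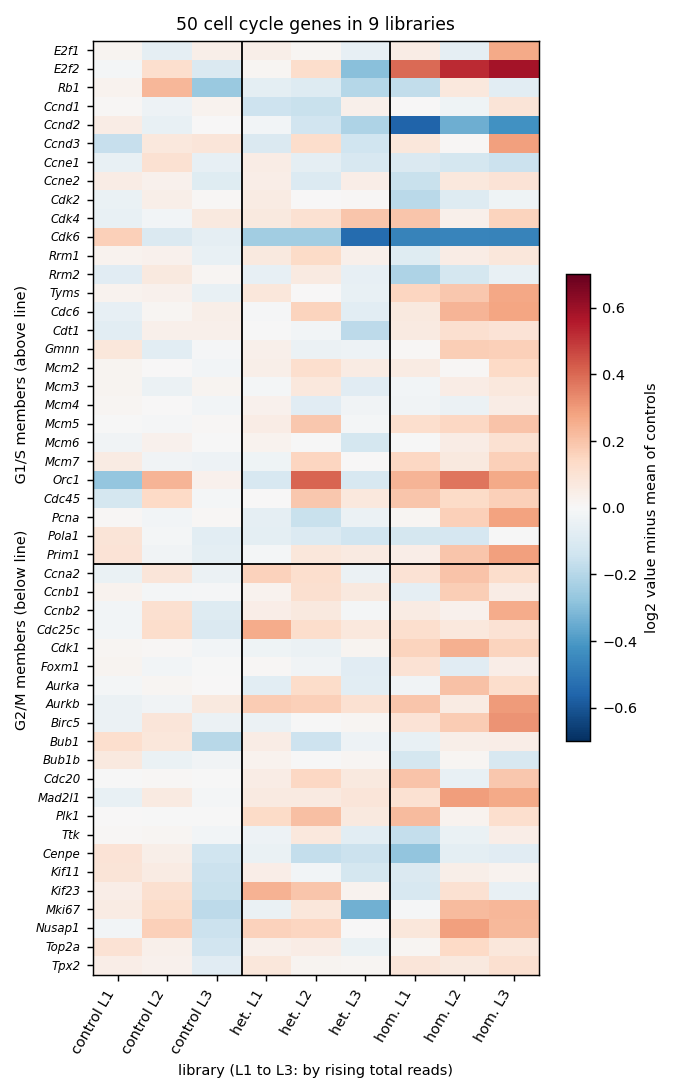
Log2(value + 0.5) of each of the 50 genes in each of the 9 libraries, minus the mean of the 3 controls (color, red higher and blue lower). Rows are grouped by phase and role, and columns by genotype. *E2f2* is red and *Cdk6* and *Ccnd2* are blue in all 3 homozygotes, while most other rows stay pale.

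The MCM helicase and the factors that load it were measured with 10 genes, and 0 of them were called by limma in any comparison. Of all genes, 15.2% were called in homozygotes against controls, 13.6% against heterozygotes and 0.143% in heterozygotes against controls. *Mcm2*, a subunit of the helicase, had values of 217, 215 and 212 in controls, 220.2, 233 and 223 in heterozygotes and 223, 216 and 236 in homozygotes, so that homozygotes overlapped with both other groups. Its log2 fold change in homozygotes against controls was 0.07 (95% interval -0.05 to 0.18). The 6 subunits form a ring with 1 copy of each, and per kb of exon the highest was 1.30 to 1.502 times the lowest in each of the 9 libraries. The summed level of the ring per kb was 348 to 352 in controls, 341 to 368 in heterozygotes and 359 to 379.8 in homozygotes. Its ranges in controls and homozygotes did not overlap, and that in heterozygotes overlapped with both. *Mcm5*, *Mcm7*, *Cdc6* (a loading factor) and *Cdt1* (its partner) lay above all controls in all homozygotes, as 16.6% of all genes did. Their log2 fold changes were between 0.09 and 0.19, with limma adjusted p between 0.0974 and 0.428. *Mcm5* and *Cdc6* had an unadjusted p under 0.05, as 29.6% of all genes did. *Gmnn*, the inhibitor of CDT1, and *Orc1*, the largest subunit of the origin recognition complex, had log2 fold changes of 0.12 and 0.29. *Orc1* had 59 to 199 reads per library and the widest interval of the set (-0.05 to 0.63). *Mcm7* and *Cdc6* each have 1 near-identical stretch elsewhere in the genome, and exons of *Mcm7* overlap genes of the opposite strand, so part of their reads is uncertain.

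At the replication fork, *Pcna* (ENSMUSG00000027342, chr2:132074898-132079050), the sliding clamp of the polymerases, had the clearest change. Its values were 295, 290.1 and 295 in controls, 281, 263 and 285 in heterozygotes and 297, 329 and 356 in homozygotes. All homozygotes were higher than all other libraries, homozygote L1 only just so, and all heterozygotes were below all controls. *Pcna* rose by 0.24 (log2, SE 0.07, adjusted p = 0.0281) in homozygotes against heterozygotes and was 0.15 higher than in controls (adjusted p = 0.136). The call was lost under 8 of 20 alternatives, among them a fit of the 2 groups alone, limma without the mean-variance trend, and leaving out heterozygote L1, heterozygote L2, homozygote L2 or homozygote L3. Against controls *Pcna* was called without homozygote L1. A near-identical copy elsewhere in the genome covers 82.8% of its longest protein-coding transcript. Its promoter window held CCAAT and none of the other words. *Prim1*, the catalytic subunit of primase, and *Cdc45*, part of the moving helicase, were 0.18 and 0.17 higher than in controls (adjusted p = 0.139 and 0.201). *Pola1*, which extends the primers, had a log2 fold change of -0.08 (95% interval -0.22 to 0.06).

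Of 3 genes of nucleotide supply 1 was called against controls and 0 against heterozygotes, where 15.2% and 13.6% of all genes were. *Tyms* (ENSMUSG00000025747, chr5:30384742-30400157), thymidylate synthase, had values of 87.2, 87.8 and 82.7 in controls, 90.8, 86.1 and 82.7 in heterozygotes and 95.3, 97.9 and 104 in homozygotes. All homozygotes were above all other libraries. *Tyms* rose by 0.20 against controls (SE 0.06, adjusted p = 0.041) and was 0.19 higher than in heterozygotes (adjusted p = 0.0547), where it was called with edgeR, with a filter on low values, under quantile normalization and with the length trend removed. The call against controls was the least stable of the set. It was lost under 11 of 20 alternatives, among them DESeq2, a fit of the 2 groups alone, limma without the mean-variance trend, and leaving out any one of the control libraries, heterozygote L2, homozygote L2 or homozygote L3. *Rrm1* and *Rrm2*, the subunits of ribonucleotide reductase, had log2 fold changes of 0.02 and -0.13 against controls (95% intervals -0.11 to 0.14 and -0.27 to 0.01).

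The largest fall in an abundant gene was that of *Ccnd2* (ENSMUSG00000000184, chr6:127075797-127101066), one of the D-type cyclins that start G1 progression. Its values were 631, 588 and 611 in controls, 602, 556 and 525 in heterozygotes and 413, 480.1 and 455 in homozygotes. Every homozygote was below every other library, and heterozygotes overlapped with controls. *Ccnd2* fell by 0.44 against controls (log2, SE 0.07, adjusted p = 0.00117) and by 0.32 against heterozygotes (adjusted p = 0.00895). The mean of homozygotes was 73.7% of that of controls. The call against controls was made under all 20 alternatives, and that against heterozygotes was lost when the mean-variance trend was left out.

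The other D-type cyclins did not show this fall. *Ccnd1* had values of 213, 206 and 215 in controls, 191, 189.5 and 217 in heterozygotes and 211, 207 and 225 in homozygotes, and the 3 groups overlapped. Its log2 fold change against controls was 0.02 (95% interval -0.12 to 0.15). *Ccnd3*, the most abundant of the 50 genes per kb of exon, had values of 359.7, 424 and 426 in controls, 375, 439 and 364 in heterozygotes and 425, 404 and 490.3 in homozygotes, which also overlapped. Its log2 fold change was 0.12 (95% interval -0.07 to 0.32). *Ccnd3* has 1 near-identical stretch elsewhere in the genome, and both *Ccnd1* and *Ccnd3* share exonic bases with a gene of the opposite strand.

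To compare the cyclins with each other within a library, their levels were divided by exonic length. *Ccnd2* contributed 29.9% to 34.0% of the summed D-type cyclin level in controls, 28.6% to 32.8% in heterozygotes and 22.4% to 26.5% in homozygotes. The homozygote range lay below both others. The summed level overlapped between all groups (326 to 352 in controls, 310.2 to 341.5 in heterozygotes and 316 to 356 in homozygotes, per kb). The log2 ratio of *Ccnd2* to *Ccnd1* was 0.46 lower in homozygotes than in controls and that to *Ccnd3* 0.57 lower. These ratios were chosen after the values had been seen. In an exact two-sided permutation test each had p = 0.10, the smallest value that 3 against 3 can give, and 0.114 after adjustment over 8 such ratio tests.

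**Figure D3:**
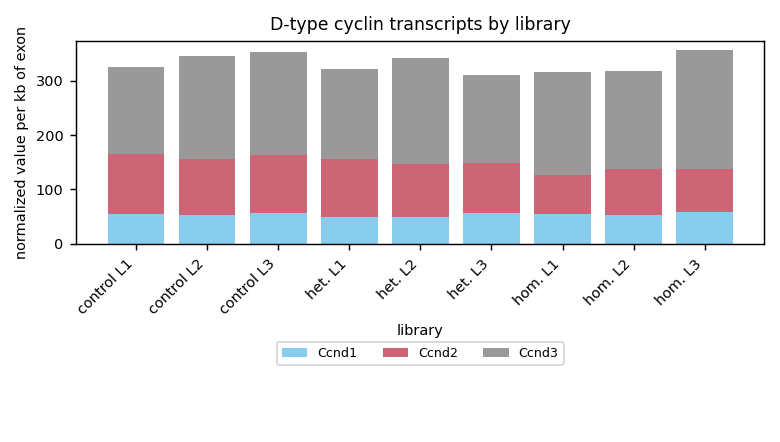
Levels of the D-type cyclins, as normalized value per kb of exon, stacked for each of the 9 libraries. The red segment, *Ccnd2*, is 22.4% to 26.5% of the bar in homozygotes and 28.6% to 34.0% in the other libraries, while the heights of the bars overlap between genotypes.

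*Cdk6* (ENSMUSG00000040274, chr5:3343893-3523218), a partner kinase of the D-type cyclins, had the lowest level per kb of exon among the kinases of the set. Its values were 13.5, 11.1 and 11.4 in controls, 10.03, 10.03 and 8.09 in heterozygotes and 8.52, 8.55 and 8.51 in homozygotes. Controls were higher than all other libraries, and heterozygotes and homozygotes overlapped. *Cdk6* fell by 0.47 against controls (SE 0.14, adjusted p = 0.0354), whereas the difference from heterozygotes was -0.12 (95% interval -0.42 to 0.17). It rested on 37 to 112 reads per library, and the call was lost with DESeq2 and without any one of the control or homozygote libraries. *Cdk4*, the other partner kinase, had values of 403, 412 and 439 in controls, 438, 449 and 477 in heterozygotes and 477, 428 and 466 in homozygotes. Its groups overlapped, and its log2 fold change against controls was 0.13 (95% interval from just below 0 to 0.26, adjusted p = 0.181). The log2 ratio of *Cdk6* to *Cdk4* was 0.60 lower in homozygotes than in controls (exact two-sided permutation p = 0.10) and 0.13 lower than in heterozygotes (p = 0.40). *Cdk4* shares 18.6% of its exonic bases with a gene of the opposite strand, so part of its reads is uncertain.

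The late G1 cyclins and their kinase were not called. *Ccne1*, cyclin E1, had values of 48.3, 54.1 and 48.2 in controls, 52.0, 48.0 and 46.3 in heterozygotes and 46.7, 46.0 and 45.1 in homozygotes. Homozygotes were below all controls and overlapped with heterozygotes, and the log2 fold change against controls was -0.13 (95% interval -0.28 to 0.03, adjusted p = 0.279). *Ccne2* had a log2 fold change of 0.01 and *Cdk2*, the kinase of both, one of -0.10 (adjusted p = 0.29).

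Among the E2F factors, *E2f2* (ENSMUSG00000018983, chr4:135728309-135751972) had the largest rise of the 50 genes. Its values were 37.2, 40.8 and 35.0 in controls, 37.9, 40.9 and 30.6 in heterozygotes and 49.6, 54.2 and 56.6 in homozygotes. Every homozygote was above every other library, and heterozygotes overlapped with controls. *E2f2* rose by 0.50 against controls (log2, SE 0.10, adjusted p = 0.00656) and by 0.55 against heterozygotes (adjusted p = 0.00397), and both calls were made under all 20 alternatives. *E2f1* had values of 36.5, 34.4 and 37.1 in controls, 37.0, 36.3 and 34.5 in heterozygotes and 37.4, 34.4 and 43.4 in homozygotes. These overlapped, and its log2 fold change was 0.09 (95% interval -0.10 to 0.28). The log2 ratio of *E2f2* to *E2f1* was 0.41 higher in homozygotes than in controls (exact two-sided permutation p = 0.10, 0.114 after adjustment over the 8 ratio tests). *Rb1*, which encodes the RB protein that holds E2F factors inactive, had values of 21.9, 25.3 and 17.8 in controls, 20.4, 20.1 and 18.6 in heterozygotes and 19.0, 22.6 and 20.4 in homozygotes. Its groups overlapped, and its log2 fold change of -0.06 had an interval from -0.32 to 0.21.

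The promoter table gave *E2f2* 2 starts, and neither window held an E2F word. Stretches of both windows are printed because *E2f2* rose most, with matches in capitals. The stretch before the upstream start had 1 CCAAT and no CHR word, and that before the downstream start had both.
*E2f2*, upstream start, chr4:136172251-136172273, plus strand: attgtagcagCCAATcgaggcgc
*E2f2*, downstream start, chr4:136180598-136180766, plus strand: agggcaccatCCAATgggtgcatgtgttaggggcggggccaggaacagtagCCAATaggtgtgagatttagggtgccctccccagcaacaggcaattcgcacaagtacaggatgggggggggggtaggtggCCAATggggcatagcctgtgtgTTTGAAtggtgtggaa

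*E2f2* is known to act in maturing red cells, and the markers of cell types that a heart sample can hold were read beside the cell cycle genes. Of 14 erythroid markers, 13 were in the table and all 13 rose in homozygotes against controls and against heterozygotes, with medians of 0.63 and 0.84 (log2). Their summed value was 35928 to 51441 in controls, 28867 to 48513 in heterozygotes and 62958 to 83283 in homozygotes, with no overlap between homozygotes and the others. Their mean log2 level and *E2f2* had the same order of libraries within heterozygotes (L3, L1, L2) and within homozygotes (L1, L2, L3), but not within controls. The same order was shared by 10 of the 50 genes in controls, 13 in heterozygotes and 17 in homozygotes. The share over all genes was not computed. In homozygotes the order L1, L2, L3 is also that of total reads, so it cannot be told apart from depth. The mean level of the markers was 9.50, 9.67 and 9.88 in homozygote L1 to L3. The mean level of G1/S genes, relative to controls, was -0.01, 0.05 and 0.10 in the same libraries, and that of G2/M genes was 0.03, 0.10 and 0.12. The part of red cells in these values and in the rise of *E2f2* was not tested.

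Other lineages are given as counts against the 7.19% of all genes that rose and the 8.03% that fell. The lists are short, so a single gene weighs much. In either direction 55.6% of epicardial, 40% of endothelial and endocardial and 28.6% of cardiomyocyte markers were called against controls. For cushion mesenchyme it was 20% and for macrophages 14.3%, against 15.2% of all genes. Of 9 epicardial markers 5 rose in homozygotes against controls, with summed values of 505 to 565 in controls, 541 to 557 in heterozygotes and 682 to 747 in homozygotes. Of 14 cardiomyocyte markers 1 rose and 3 fell, of 10 endothelial and endocardial markers 1 rose and 3 fell, of 10 cushion mesenchyme markers 2 fell, and of 7 macrophage markers 1 fell. No liver or endoderm marker was called by limma out of 8 tested (1 at an unadjusted p under 0.05), but their summed value reached 829.8 in control L2 against 61.3 and 71.0 in the other controls. Cardiomyocyte markers were abundant in every library, with summed values of 21952 to 29295 over all genotypes and none at 0 reads. The part of these lineages in the cell cycle values was not tested.

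**Figure D4:**
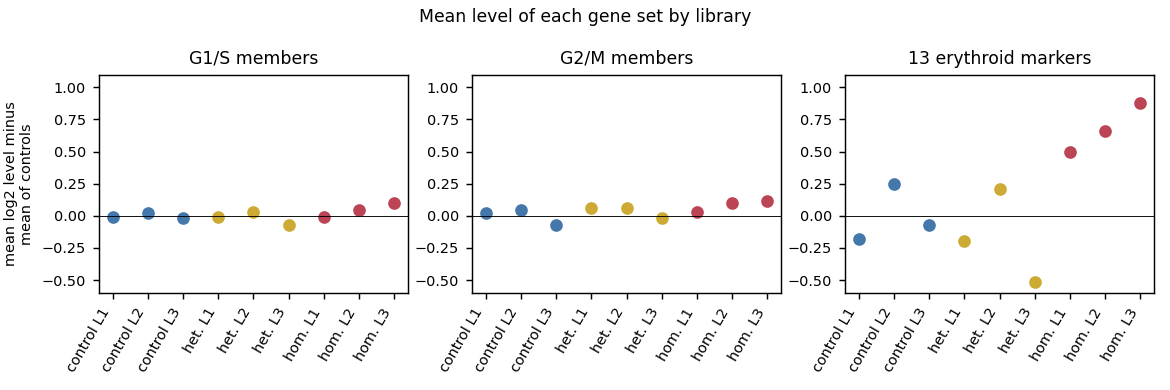
Mean log2 level of the 28 G1/S genes, the 22 G2/M genes and the 13 erythroid markers in each library, minus the mean of the 3 controls (one point per library, blue controls, yellow heterozygotes, red homozygotes). The cell cycle genes stay within -0.07 to 0.12 of the controls, while the erythroid markers in homozygotes are above those in every other library.

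The genes of mitotic entry were led by *Cdk1* (ENSMUSG00000019942, chr10:68799383-68815686), the kinase that drives cells into mitosis. Its values were 166, 165 and 162 in controls, 161, 159.9 and 166 in heterozygotes and 183, 195 and 183 in homozygotes. Every homozygote was above every other library. *Cdk1* rose by 0.19 against controls (log2, SE 0.05, adjusted p = 0.0273) and by 0.20 against heterozygotes (adjusted p = 0.02). The mean of homozygotes was 114% of that of controls. The call against controls was lost under 8 of 20 alternatives, among them DESeq2, limma without the mean-variance trend, and leaving out any one of the control libraries or homozygote L2. That against heterozygotes was made with DESeq2 and lost under 6, among them limma without the trend and leaving out heterozygote L1, heterozygote L2 or homozygote L2.

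The cyclins that bind CDK1 were not called. *Ccnb1*, cyclin B1, had values of 216, 210.4 and 211 in controls, 216, 229 and 223 in heterozygotes and 204, 239.9 and 220.4 in homozygotes. Homozygotes enclosed both other groups, and the log2 fold change against controls was 0.06 (95% interval -0.08 to 0.19). *Ccnb1* has 3 near-identical stretches elsewhere in the genome. *Ccna2*, cyclin A2, had values of 249, 273 and 249.7 in controls, 288, 279 and 249.6 in heterozygotes and 275, 296 and 280.2 in homozygotes. Homozygotes were above all controls and overlapped with heterozygotes, at a log2 fold change of 0.14 (adjusted p = 0.161). *Ccnb2*, *Cdc25c*, the phosphatase that activates CDK1, and *Foxm1*, a transcription factor of the mitotic wave, had log2 fold changes between 0.02 and 0.12.

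Of 9 mitotic kinases and checkpoint genes 1 was called against controls and 0 against heterozygotes, where 15.2% and 13.6% of all genes were. This was *Mad2l1* (ENSMUSG00000029910, chr6:66485384-66491027), whose product holds cells until all chromosomes are attached. Its values were 89.0, 96.4 and 91.2 in controls, 96.3, 96.2 and 97.7 in heterozygotes and 99.1, 113 and 111 in homozygotes. All homozygotes were above all other libraries, L1 by the smallest margin. *Mad2l1* rose by 0.22 against controls (log2, SE 0.06, adjusted p = 0.0323) and was 0.15 higher than in heterozygotes (adjusted p = 0.138). The call was lost under 10 of 20 alternatives, among them DESeq2, a fit of the 2 groups alone, limma without the mean-variance trend, removal of the trend with gene length, and leaving out control L1, control L3, homozygote L2 or homozygote L3. *Birc5*, survivin, and *Aurkb*, its partner kinase in the chromosomal passenger complex, were 0.20 and 0.18 higher than in controls (adjusted p = 0.0604 and 0.11). *Birc5* was called against controls under quantile normalization and without homozygote L1. Against heterozygotes it was called under both of these and with a filter on low values. *Aurkb* was called against controls without homozygote L2, and *Mad2l1* against heterozygotes without homozygote L1. The checkpoint genes *Bub1*, *Bub1b* and *Ttk* had log2 fold changes of 0.01, -0.07 and -0.06. *Plk1*, *Aurka* and *Cdc20*, the activator of the anaphase-promoting complex, had log2 fold changes between 0.10 and 0.12.

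The proteins of the spindle and the mitotic chromosome were not called in any comparison (0 of 7 genes). Of all genes, 15.2% were called in homozygotes against controls and 13.6% against heterozygotes. *Nusap1* was called against controls without control L2, and *Top2a* and *Mki67* in the fit without the length trend described last. *Mki67*, the proliferation marker Ki-67 that coats mitotic chromosomes, was the most abundant G2/M gene per kb of exon. Its values were 949, 999.7 and 803 in controls, 885, 965 and 724 in heterozygotes and 909, 1066 and 1071 in homozygotes. The groups overlapped, and its log2 fold change was 0.15 against controls (95% interval -0.08 to 0.38) and 0.25 against heterozygotes (95% interval 0.02 to 0.48, adjusted p = 0.148). *Top2a*, the topoisomerase that untangles sister chromosomes, had values of 636, 609 and 540.4 in controls, 607, 617 and 574 in heterozygotes and 600.3, 655 and 626 in homozygotes. These overlapped as well, with a log2 fold change of 0.08 (95% interval -0.07 to 0.22). The motors *Kif11*, *Kif23* and *Cenpe* had log2 fold changes of -0.01, -0.02 and -0.14, and the spindle proteins *Tpx2* and *Nusap1* of 0.09 and 0.20. At an unadjusted p under 0.05, *Nusap1* was the only one of these 7 genes against controls, where 29.6% of all genes were.

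**Figure D5:**
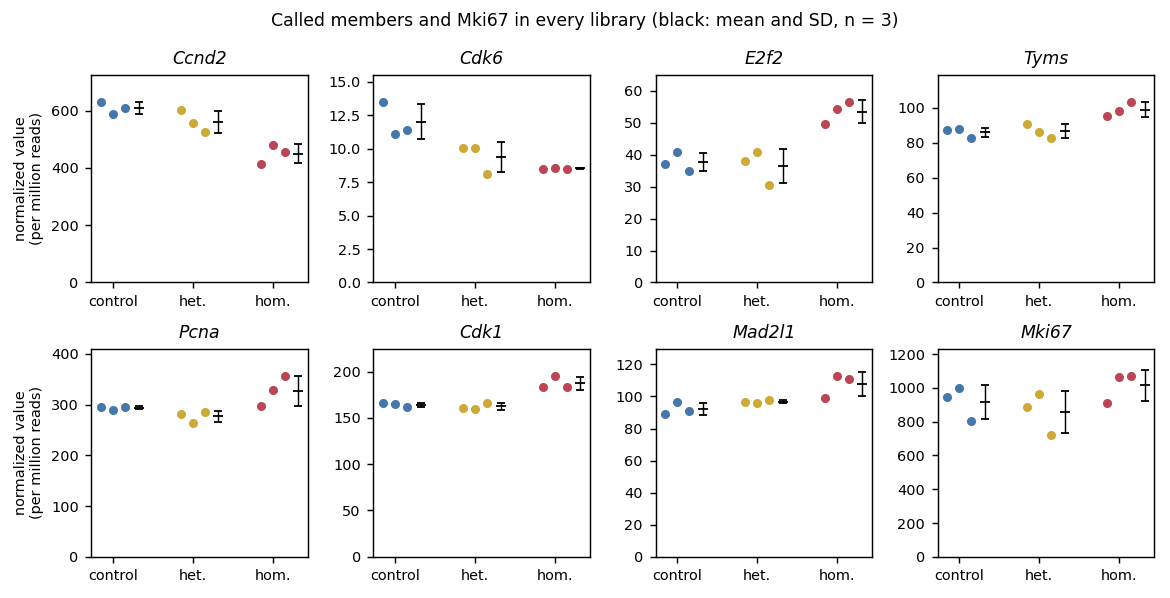
Normalized values of the 7 genes called in homozygotes and of *Mki67*, one point per library (blue controls, yellow heterozygotes, red homozygotes), with the mean and SD of 3 libraries in black. In 6 of the called genes every homozygote lies on one side of all other libraries, whereas *Cdk6* overlaps between heterozygotes and homozygotes, and *Mki67* overlaps between all groups.

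Other genes of the same pathway were read from lists of 158 tested genes. Homozygotes differed from controls in 17 of them (10.8%), with 15 higher and 2 lower, where 15.2% of all genes were called, 7.19% higher and 8.03% lower. They differed from heterozygotes in 16 (10.1%), all higher, where 13.6% of all genes were called and 6.87% were higher. With the trend with gene length removed, 11 were called against controls, all higher, and 15 against heterozygotes, all higher, where 10.97% and 11.2% of all genes with a known length were called. Heterozygotes differed from controls in 0 of them with limma, with 9 at an unadjusted p under 0.05, where 0.143% and 7.37% of all genes were. The counts of the single lists that follow stand against the same 7.19% higher and 8.03% lower. Of 43 replication factors 5 rose against controls, among them *Pole4*. Of 65 kinetochore and spindle genes 7 rose, of 16 genes of the E2F, pocket protein and DREAM group 1 rose, of 13 genes of the anaphase-promoting complex 1 rose, of 8 condensin genes 1 rose and of 6 genes for CDK inhibitors 1 rose (*Cdkn3*, which stands in 2 lists and was named after its value was seen). Of the 8 checkpoint kinases and CDC25 phosphatases, 2 fell.

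By adjusted p the leading gene was *Cenpw*, a DNA-binding protein of the inner kinetochore. Its values were 22.7, 21.5 and 24.3 in controls, 19.5, 21.1 and 19.0 in heterozygotes and 32.1, 32.1 and 32.4 in homozygotes, which were above all other libraries. *Cenpw* rose by 0.49 (log2, SE 0.09, adjusted p = 0.00283). *Spc25*, an outer kinetochore subunit, *Ube2s* and *Anapc5* of the mitotic ubiquitin machinery, *Cdca3*, *Pole4*, a subunit of DNA polymerase epsilon, and *E2f4*, a repressive E2F, rose by 0.27 to 0.36 (adjusted p between 0.00387 and 0.00956), and *Ube2s* was not called with the length trend removed. *Atm* and *Atr*, the kinases that respond to damaged and stalled DNA, fell by 0.41 and 0.35 (adjusted p = 0.00663 and 0.0105), calls that were lost with the length trend removed. Against heterozygotes their log2 fold changes were -0.18 and -0.07 (adjusted p = 0.20 and 0.639). Of the CDK inhibitors, *Cdkn1a* (p21) had a log2 fold change of 0.31, *Cdkn1b* (p27) of -0.23 and *Cdkn1c* (p57) of -0.13 against controls, with adjusted p of 0.145, 0.129 and 0.183. Under quantile normalization *Cdkn1c* was called lower, at -0.27 (adjusted p = 0.0103).

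Gene length moved with these changes. Among all genes ranked by exonic length, the median change in homozygotes from controls was 0.17 (log2) in the shortest 10% and -0.16 in the longest 10%. The median exonic length of the 50 genes was 3550 bases, against 3669 for all genes, so as a group they lay near the middle of this trend. After removal of the trend, 6 of the 50 genes were called against controls (4 higher, 2 lower) and 5 against heterozygotes (4 higher, 1 lower), where 10.97% and 11.2% of all genes were called, and 39 of 50 estimates against controls were above 0. *Mad2l1* lost its call against controls, at a log2 fold change of 0.17, and *Pcna* lost that against heterozygotes, at 0.20. *Top2a* was called against controls, and *Tyms* and *Mki67* were called against heterozygotes. Of the genes outside the set named above, *Ube2s* (exonic length 988 bases) went from 0.28 to 0.13 after the removal (adjusted p = 0.116). *Atm* (10339 bases) went from -0.41 to -0.25 (adjusted p = 0.0673) and *Atr* (8499 bases) from -0.35 to -0.22 (adjusted p = 0.0791), while *Cenpw*, *Spc25*, *Cdca3*, *Anapc5*, *E2f4* and *Pole4* were called. *Cdkn1a*, *Cdkn1b* and *Cdkn1c* were not called with the trend removed. Of the 13 erythroid markers, 9 were called against controls and 13 against heterozygotes after the removal.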

How the data were processed

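RNA-seq of 9 libraries (3 control, 3 heterozygous and 3 homozygous pools of E10.5 hearts) was analyzed. The instrument was a GAIIx, and the authors deposited a single table that holds a normalized signal value for each gene and library. The submitters' processing notes list CASAVA 1.8, cutadapt 1.6.1, RSEM 1.20, Bowtie2 0.12.7 and limma, and NCBIM37 as the build, with no roles, and strand handling is not given in the sources used here. The deposited signal values were whole reads plus a small prior, scaled to an effective library size, and whole reads were recovered for 100% of values. Columns were matched to genotypes by their abbreviations, although that of the controls reads as heterozygous, and the match was checked against the study's published group averages, which equalled the column means (1998 of 1998 control, 787 of 787 heterozygote and 2785 of 2785 homozygote averages). The control and heterozygous columns could not be matched to single deposited samples. Nothing in the sources used here says whether pools were sequenced as separate batches.

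Values were analyzed as log2(value + 0.5) with limma 3.58.1 in R 4.3.3, in one fit of 9 libraries that lets the variance follow the mean level, and p-values were adjusted over 14011 genes by the Benjamini-Hochberg method, with calls at an adjusted p under 0.05. Fold changes on this scale understate those of low genes. Libraries of one genotype differed by more than counting noise (chi-square per degree of freedom 3.22 to 7.15). The genes, the lists and the tests were chosen with earlier results of these data known. Values in every library are given for called genes, for the 3 most abundant genes per exonic length in each phase and for *Pcna*, *Mcm2*, *Ccnd1*, *Ccnd2*, *Ccne1*, *Cdk1*, *Ccnb1*, *Top2a*, *Mki67*, *E2f1* and *Rb1*, and at most 10 other pathway genes are named by the smallest adjusted p, of which 1 is not reported here. Alternatives were edgeR 4.0.16 and DESeq2 1.42.0 on the recovered reads, other pseudocounts, a filter, quantile normalization, removal of the length trend, a replicate block, fits of 2 groups, limma without the trend, a stricter threshold and leaving out each library. Names, lengths and coordinates came from GENCODE M1. Genes of the opposite strand also share 17.4% of the exonic bases of *Ccne2*, 14.9% of *Rb1* and 14.6% of *Ccna2*. Near-identical copies were searched in NCBIM37 with BLAST+ 2.17.0 at 95% identity over 50% of the longest protein-coding transcript. Promoters came from RefSeq (GRCm38.p6). Scripts ran in Python 3.11.15. The tests were checked on simulated data with changes of at least 0.5 (log2), so smaller changes were not covered.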

Additional observations from a re-analysis of the deposited data

How the results depend on the processing

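No called gene of the set changed direction under any alternative run. Of 20 alternatives for the number of genes called, 12 kept it within 1.5 times in homozygotes against controls, 15 against heterozygotes, and all 20 gave 0 genes in heterozygotes against controls. The share of all genes called under the same setting follows each count in brackets. Homozygotes against controls gave 2 genes with DESeq2 (11.8%) and 2 at an adjusted p under 0.01 (6.12%), *Ccnd2* and *E2f2* in both. There were 3 without the mean-variance trend (8.54%) and 3 with the replicate block (12.5%). Leaving out single libraries gave 2 to 7 genes. There were 2 without control L1 (7.49%) or L3 (11.5%). There were 3 without homozygote L2 (12.7%) or L3 (9.04%) and 7 without homozygote L1 (13.4%). Homozygotes against heterozygotes gave 2 genes at an adjusted p under 0.01 (5.15%), 1 without the trend (7.59%) and 2 to 6 on leaving out single libraries. There were 2 without heterozygote L1 (8.73%), heterozygote L2 (8.97%) or homozygote L2 (10.8%). The median log2 fold change of G1/S genes against controls was 0.0293 to 0.0905 on leaving out single libraries, the lowest without homozygote L3. The cause of these differences was not tested.

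The numbers that end the column names did not pair the samples, since deviations of same-numbered libraries correlated between -0.14 and 0.13 over 9 pairs and those of other numbers between -0.13 and 0.18. With the replicate block, 3 genes were called against controls (*Ccnd2*, *Cdk6* and *E2f2*), where 12.5% of all genes were. Against heterozygotes 3 were called (*Pcna*, *Ccnd2* and *E2f2*), where 11.1% of all genes were. In heterozygotes against controls 0 were called, where 0.107% of all genes were. Depth limits *Cdk6* and *Orc1* most, at 37 to 112 and 59 to 199 reads per library.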
